A study of Mus musculus with 119 samples.

Results

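On 2 stretches of the mouse genome lay 9 genes whose RNA differed between Map3k8[D270A] and wild-type (WT) macrophages before any LPS was given. Ankrd29, Cables1, Abhd3, and Tmem241 lie on chromosome 18, the chromosome of Map3k8 itself. Gfra2, Phyhip, Tnfrsf10b, 4930480K23Rik, and Adra1a lie on chromosome 14. These 9 of the 18098 genes measured were chosen by their symbols because of their position and because they differed in Map3k8[D270A] cells without LPS, so the difference between Map3k8[D270A] and WT cells is given below as a description with no test. Tests were made on the other genotypes, the inhibitors, and the response to LPS in WT cells. Most of these share the WT libraries with that choice and are thus only in part independent of it.

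Bone marrow-derived macrophages, which are grown from mouse bone marrow, gave the RNA-seq libraries, all labelled as strain C57BL/6(NIMR). Untreated WT cells (22 libraries) and Map3k8[D270A] cells (24 libraries), which carry a kinase-inactive TPL-2, were harvested without LPS and after 0.5, 1, and 2 h of LPS, with 6 libraries in each group except WT cells at 2 h (4 libraries). Elk1-/-Elk4-/- cells (16 libraries, 4 at each of the same times) lack 2 ternary complex factors, and Nfkb1[SS/AA] cells (18 libraries, 6 each at 0, 0.5, and 1 h) carry a p105 that IKK does not phosphorylate. WT cells were also given the MKK1/2 inhibitor PD0325901 at 0.1 µM for 10, 40, or 70 min without LPS (3 libraries each), PD0325901 for 10 min and then LPS for 0.5 or 1 h (6 libraries each), the solvent DMSO for 10 min without LPS (3 libraries), or the RSK inhibitor RSKi47 at 2 µM for 10 min and then LPS for 0, 0.5, 1, or 2 h (4 libraries each, 3 at 0.5 h). The mutations are constitutive alleles in strains backcrossed onto C57BL/6. The sources used here state neither age nor sex of the mice. The labels call the libraries of a group replicates, and where these do not come from separate mice the p values measure technical spread alone.

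TPL-2, the product of Map3k8, is the kinase that links TLR4 to MKK1/2 and ERK1/2 in macrophages. In resting cells it is held inactive by p105, the product of Nfkb1. LPS leads IKK to phosphorylate p105, which frees TPL-2, and ERK1/2 then act on ELK1 and ELK4 and on kinases of the RSK family. A targeted allele that was made in a donor genome and then backcrossed keeps donor DNA on either side of the altered gene, and donor DNA can also be carried elsewhere. No genotypes of the cells were analysed here, so donor DNA and the kinase mutation cannot be told apart within the Map3k8[D270A] arm.

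Elk1 averaged 6.36 without LPS in Elk1-/-Elk4-/- cells and 9.14 in WT cells, and Elk4 averaged 5.71 and 7.72. Map3k8 mRNA averaged 8.84 in Map3k8[D270A] and 8.94 in WT cells without LPS, and Nfkb1 averaged 11.35 in Nfkb1[SS/AA] and 11.33 in WT cells, as point mutations leave mRNA to be counted, so these 2 values do not check the labels. Of 19 ERK-driven early genes, 13 were lower in Map3k8[D270A] than in WT cells at 0.5 h of LPS (adjusted p below 0.05, limma), and 17 at 1 h. Of all genes 1.37% and 9.79% passed in either direction at these times. In Nfkb1[SS/AA] cells 12 and 18 of the 19 were lower and 2 and 0 higher, where 32.3% and 42.5% of all genes passed. With PD0325901 13 and 17 were lower and none was higher, where 29.4% and 35.7% passed. In Elk1-/-Elk4-/- cells 8 and 14 were lower and 3 and 1 higher, where 44.4% and 53.4% passed. With RSKi47 11 and 8 were lower and 1 and 2 higher, where 48.2% and 52.8% of all genes passed, so that the counts at 1 h did not exceed this background. The macrophage genes Adgre1, Csf1r, Cd68, Itgam, and Lyz2 ran from 13.6 to 18.7 over all libraries, whereas Cd3e, Cd3d, Cd3g, Dcn, Pdgfra, Sox10, and Gfap stayed below 0. Other macrophage, T cell, stromal, and glial and neural genes examined did not keep to these ranges. Mertk, Fcgr1, and Cd14 ran from 9.48 to 11.01, 11.21 to 13.02, and 13.04 to 15.71. The T cell gene Cd247 ran from 2.74 to 5.13 and the neural gene Mbp from 10.02 to 10.84. The stromal genes Col1a1 and Col1a2 ran from 2.25 to 9.03 and from 2.71 to 7.28. None of 8 macrophage or 6 neutrophil genes passed in Map3k8[D270A] cells without LPS (limma; 2 and 0 at an unadjusted p below 0.05), with differences from -0.12 to 0.05 and from -0.37 to -0.05. With LPS 0, 2, and 3 of the macrophage genes were lower at 0.5, 1, and 2 h (differences of all 8 from -0.45 to 0.12), and at 2 h 1 of 2 dendritic cell genes (differences of -0.78 and -0.06) and 1 of 2 glial and neural genes (-0.53 and -0.08) were lower. The other arms differed in such markers. The summed level of 8 neutrophil genes ran from 6.29 to 7.77 in WT, 6.19 to 7.57 in Map3k8[D270A], 6.76 to 8.36 in Nfkb1[SS/AA], 7.11 to 8.60 in RSKi47-treated, 7.32 to 8.82 in PD0325901-treated, 7.56 to 8.26 in DMSO-treated, and 10.05 to 11.05 in Elk1-/-Elk4-/- cells. Of these genes Elane stayed below 1 and Mpo below 2.3 in each library. Macrophage sums lay between 18.35 and 19.23 in all arms. All values are log2 normalized values, and all differences are log2 differences as deposited. The files do not give the depth of each library, and no source used here states how the values were transformed. If the transformation drew differences together, those printed are too small, and folds are given on this scale. Fewer cells of a type and less RNA per cell cannot be told apart in bulk samples.

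The chromosome 18 genes span 1.66 Mb in GRCm38.p6, from the start of Abhd3 (chr18:10644411-10706783) to the end of Ankrd29 (chr18:12252357-12306013). Cables1 (chr18:11839274-11945627) and Tmem241 (chr18:11980119-12121570) lie between them. Map3k8 (chr18:4331325-4352953) is 6.31 Mb from Abhd3 and 7.92 Mb from Ankrd29, counted between the lower coordinates of the genes. On chromosome 14, 4930480K23Rik (chr14:69732784-69767113), Tnfrsf10b (chr14:69767472-69784411), Phyhip (chr14:70457517-70468826), and Gfra2 (chr14:70890107-70979840) lie within 1.25 Mb. Adra1a (chr14:66635251-66771240) lies 2.96 Mb before them. Only 358 bases separate the end of 4930480K23Rik from the start of Tnfrsf10b on the same strand, so reads that run on from the noncoding RNA into Tnfrsf10b could not be told from its own.

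The chromosome 18 genes Ankrd29, Cables1, and Abhd3 were higher in Map3k8[D270A] cells at every time and Tmem241 was lower. Ankrd29 encodes a protein of ankyrin repeats. Without LPS its lowest, median, and highest values were 3.68, 3.87, and 3.97 in WT cells and 5.09, 5.32, and 5.52 in Map3k8[D270A] cells, a difference of 1.50 (SE 0.11), or 2.83-fold. The difference was 1.41, 1.36, and 1.14 at 0.5, 1, and 2 h of LPS. All 24 Map3k8[D270A] libraries lay above the highest of the 95 other libraries, which was 4.58 in an Elk1-/-Elk4-/- library without LPS.

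Cables1, whose product binds cyclin-dependent kinases, had lowest, median, and highest values of 5.08, 5.37, and 5.57 in WT and 6.35, 6.64, and 6.84 in Map3k8[D270A] cells without LPS. It differed by 1.29 (SE 0.09), or 2.45-fold, and by 1.17, 1.26, and 1.01 at the later times. At each time the groups did not overlap. The 5 Map3k8[D270A] libraries that did not exceed all others were at 2 h, where Cables1 was lower in both genotypes.

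Abhd3, a phospholipase that acts on phosphatidylcholines, ran from 5.06 to 5.41 (median 5.25) in WT and from 6.11 to 6.37 (median 6.21) in Map3k8[D270A] cells without LPS. Its difference was 0.99 (SE 0.07), or 1.98-fold, and stayed between 0.91 and 0.95 after LPS. It was the steadiest of the 9 genes over time, and all 24 libraries lay above the other 95. Tmem241, a membrane protein, ran from 7.76 to 7.88 (median 7.79) in WT and from 6.95 to 7.27 (median 7.15) in Map3k8[D270A] cells, a difference of -0.67 (SE 0.05). It was the only one of the 9 that was lower, by -0.50, -0.54, and -0.46 at 0.5, 1, and 2 h.

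The chromosome 14 genes were all higher in Map3k8[D270A] cells, and they varied more between replicates. Gfra2 is the receptor for neurturin and signals with RET. It ran from 3.10 to 3.37 (median 3.27) in WT cells without LPS and from 3.80 to 5.40 (median 4.88) in Map3k8[D270A] cells, a difference of 1.56 (SE 0.24), or 2.94-fold. At 0.5, 1, and 2 h the difference was 1.48, 1.62, and 1.16, and at 0.5 and 2 h the lowest Map3k8[D270A] library, at 3.50 and 3.19, fell within the WT range.

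Phyhip, named for its binding to phytanoyl-CoA hydroxylase, was low in WT cells, from 1.63 to 1.84 (median 1.67), and from 2.78 to 3.45 (median 3.01) in Map3k8[D270A] cells. The difference was 1.37 (SE 0.11) without LPS and 1.33, 1.31, and 1.53 after it. Phyhip passed the filter on low values, a linear value of 10 (3.32 on the log2 scale), in 6 libraries, all of them Map3k8[D270A], and so was tested elsewhere only because of these. Gfra2 reached it in 23 of 24 Map3k8[D270A] and 20 of 95 other libraries, and 4930480K23Rik in 24 and 85. The other 6 genes reached it in all libraries.

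Tnfrsf10b, the death receptor for TRAIL, ran from 6.24 to 6.69 (median 6.57) in WT and from 7.14 to 7.66 (median 7.38) in Map3k8[D270A] cells without LPS, a difference of 0.88 (SE 0.10), or 1.84-fold. It differed by 0.83, 0.89, and 1.15 at the later times, and the groups did not overlap at any time. The neighbouring noncoding RNA 4930480K23Rik ran from 3.39 to 3.77 (median 3.55) and from 4.16 to 4.63 (median 4.35), and differed by 0.80 (SE 0.09) without LPS and by 0.81, 0.68, and 0.66 after it. Both transcripts were thus higher at every time.

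Adra1a, the α1A-adrenergic receptor, was the least separated of the 9. It ran from 7.60 to 8.25 (median 7.79) in WT and from 8.11 to 8.96 (median 8.38) in Map3k8[D270A] cells without LPS. The difference was 0.60 (SE 0.15) without LPS and 0.53, 0.54, and 0.97 at 0.5, 1, and 2 h. The groups overlapped at 0, 0.5, and 1 h but not at 2 h, and 1 of the 24 Map3k8[D270A] libraries lay above all other libraries. The labels number the replicates 4 to 9 in WT and 1 to 6 in Map3k8[D270A] cells and do not say which were handled together. Taking the lower 3 numbers of each, the Adra1a difference ran from 0.17 to 0.69 over the times, and taking the upper 3, from 0.74 to 1.32. WT replicates 4 and 5 held the highest WT values of Adra1a at 0.5, 1, and 2 h, at 7.99 and 8.07, 8.33 and 8.44, and 8.16 and 8.31. The differences of the other 8 genes kept their sign in both splits at each time.

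**Figure D1:**
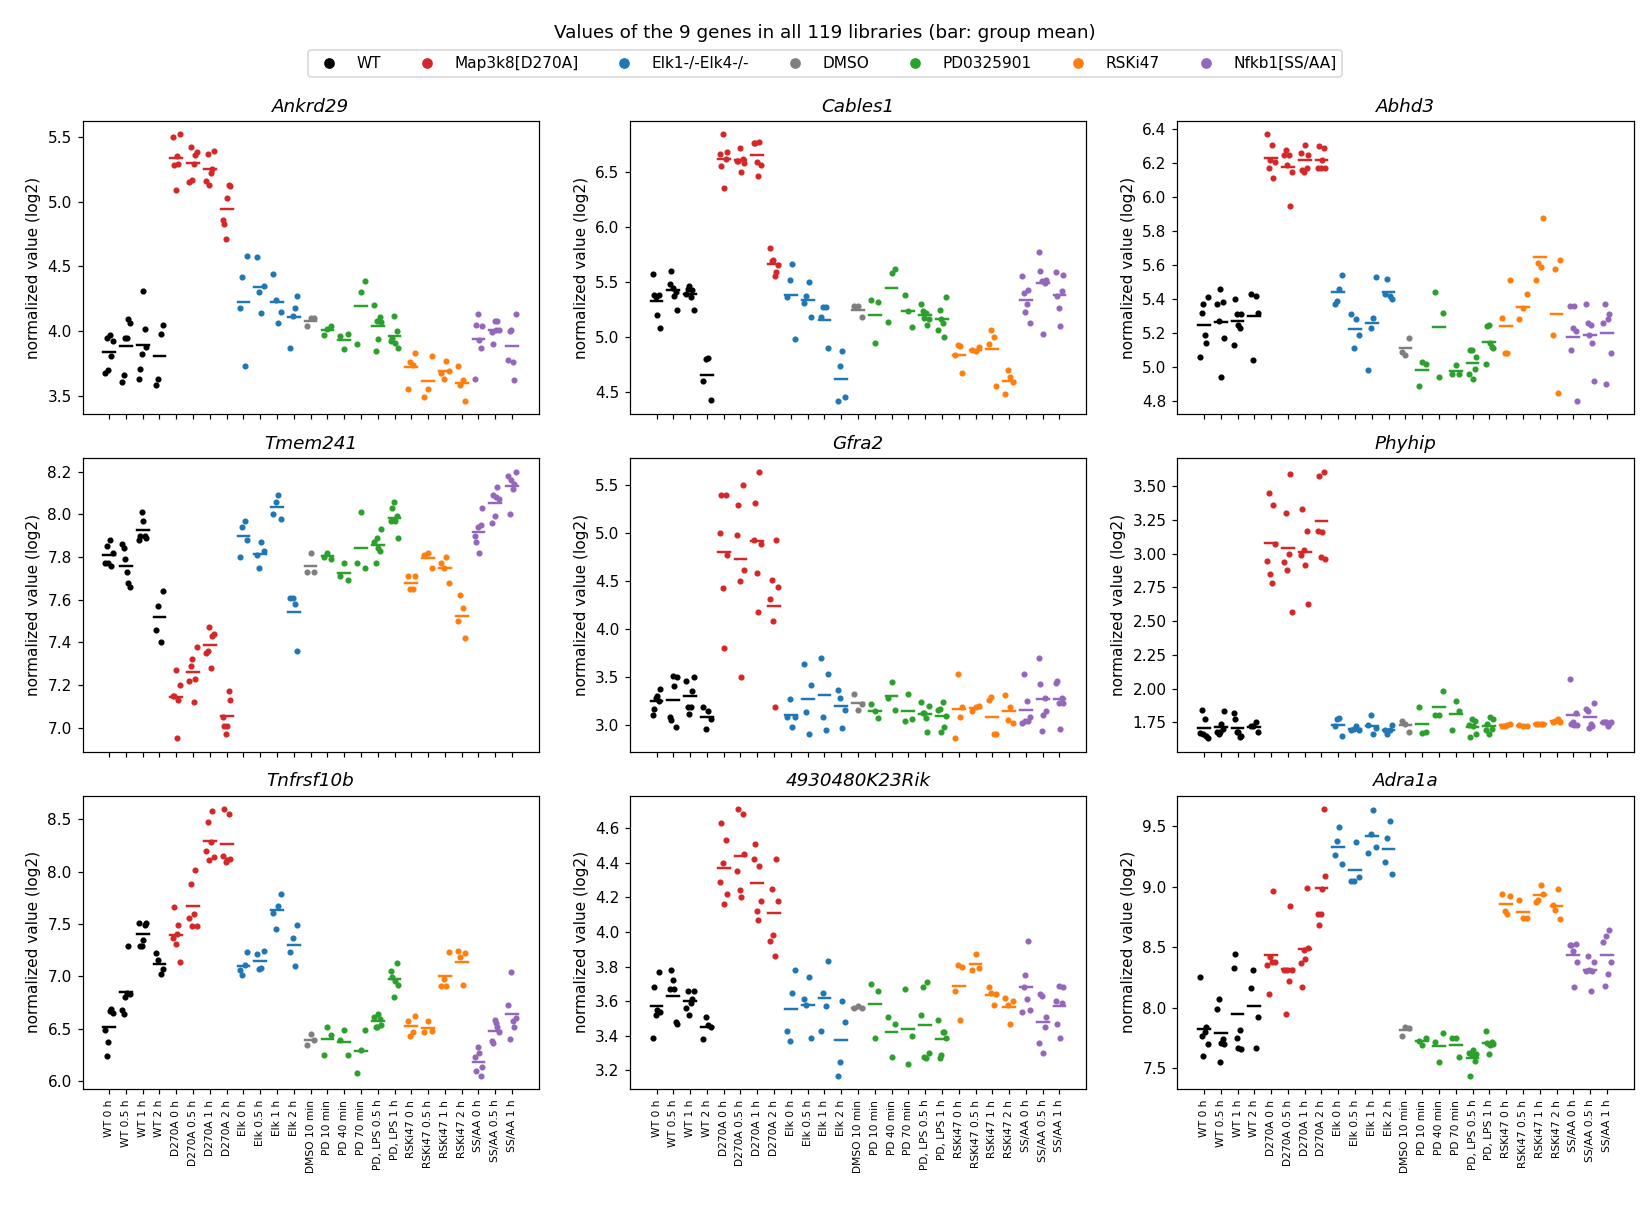
Log2 normalized values of the 9 genes in each library, by group (x axis: genotype or treatment with the time of LPS or inhibitor); each point is a library, each bar a group mean, and the y axis starts at a different value in each panel. Map3k8[D270A] libraries stand apart from the WT libraries of the same time for 8 of the genes, except the low Gfra2 values of 3.50 and 3.19, whereas Adra1a is also high in Elk1-/-Elk4-/-, RSKi47, and Nfkb1[SS/AA] cells.

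By size of difference without LPS, Gfra2 ranked 2, Ankrd29 4, Phyhip 5, Cables1 7, Abhd3 10, Tnfrsf10b 16, 4930480K23Rik 22, Tmem241 27, and Adra1a 35 of the 11884 genes tested. The median difference was 1.14 for the chromosome 18 genes, 0.88 for those of chromosome 14, and near 0 for all genes (-0.002). Over all genes 1.44% differed at an adjusted p below 0.05 without LPS, and 1.37%, 9.79%, and 27.7% at 0.5, 1, and 2 h. The WT and Map3k8[D270A] values did not overlap for 8 of the 9 genes without LPS and for 1.55% of all genes, a count that the choice of the genes fixes. At 0.5, 1, and 2 h the groups were separate for 7, 8, and 8 of them, with 1.66%, 4.92%, and 14.6% of all genes. These later counts are not independent of the choice either, as earlier results at these times were known. Genes on these chromosomes that the list leaves out came close to it. Colec12 (0.89) and Lama3 (0.87) on chromosome 18 and Egr3 (0.82) and Mir686 (0.95) on chromosome 14 differed more than 4930480K23Rik (0.80) did, while Gm9199 (-0.56) and Psma8 (0.55) were just smaller in size than Adra1a (0.60).

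Neighbours of the chromosome 18 genes differed too. Within 20 Mb of Map3k8, 46 genes that are not among the 9 were tested, and 26.1% of them passed in Map3k8[D270A] cells without LPS, 8 higher and 4 lower, beside 1.44% of all genes. The share was 26.1%, 39.1%, and 45.7% at 0.5, 1, and 2 h. Of these neighbours 9 passed at all 4 times. Besides Colec12 and Lama3 they were Mpp7 (0.43 without LPS), Psma8 (0.55), and Osbpl1a (0.19), which were higher, and the E-box repressor Zeb1 (-0.71), the cholesterol transporter Npc1 (-0.34), Rbbp8 (-0.23), and Riok3 (-0.12), which were lower. Npc1 and Riok3 start between Tmem241 and Ankrd29. Higher and lower genes were thus mixed along this stretch. In Elk1-/-Elk4-/- cells 60.9% of the same 46 genes passed without LPS, beside 51.8% of all genes, and in Nfkb1[SS/AA] cells 28.3% beside 32%.

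The chromosome 14 stretch was sparser. Of 102 other genes tested between 60 and 80 Mb, 5.88% passed without LPS, 1 higher and 5 lower, and 9.8%, 23.5%, and 32.4% passed at 0.5, 1, and 2 h. Egr3, an early growth response factor that lies 0.81 Mb before Gfra2, was the only one of them to pass at all 4 times, and it changed sign, from 0.82 without LPS to -1.16, -1.69, and -0.63 after it. Over the genome 40 genes (0.337%) passed at all 4 times. Of these, 14 were on chromosome 18 and 7 on chromosome 14, among them the 4 and 5 genes that were chosen in the same contrast. These counts carry no test, and nothing is read from them about the chromosomes. Within 20 Mb of Elk4, Elk1, and Nfkb1, the share that passed in Map3k8[D270A] cells without LPS was 0%, 2.2%, and 1.64%. In the arm that carries the altered gene, it was 56.2% and 56%, beside 51.8% of all genes, and 46.7%, beside 32%.

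**Figure D2:**
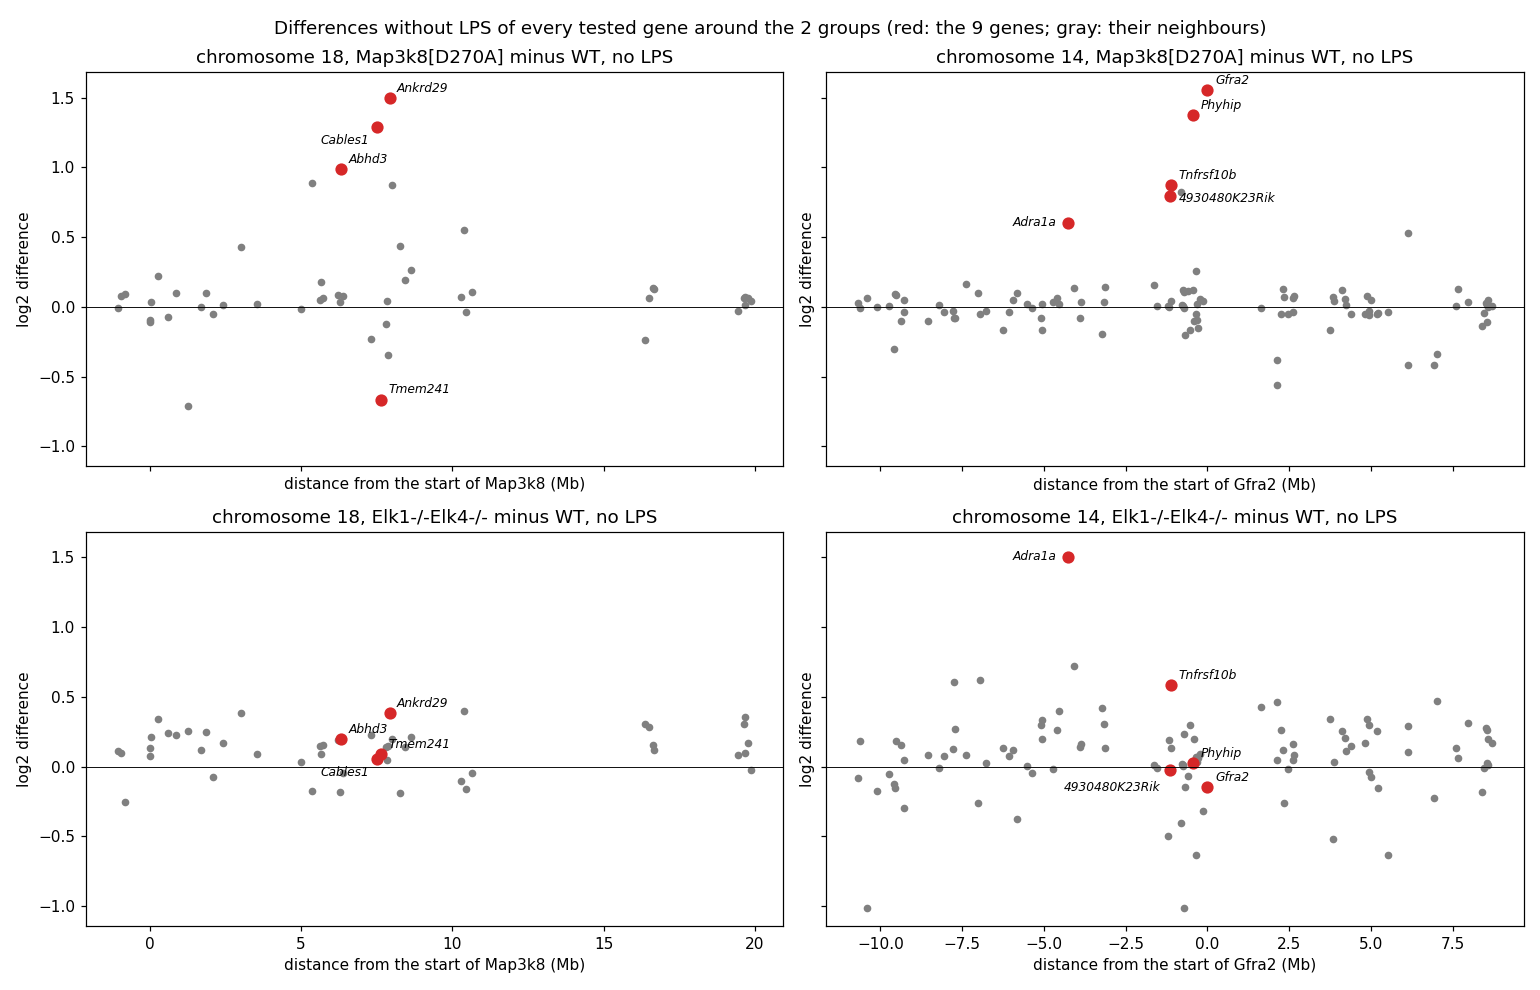
Log2 difference from WT without LPS (y axis) of every tested gene in the stretch around the chromosome 18 genes (left, x axis: distance from the start of Map3k8 in Mb) and the chromosome 14 genes (right, distance from the start of Gfra2 in Mb), for Map3k8[D270A] cells (top) and Elk1-/-Elk4-/- cells (bottom). The 9 genes (red) reach 1.56 at the top, while at the bottom Adra1a at 1.50 and Tnfrsf10b at 0.59 are the highest of them.

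The other arms were then set beside these differences. Elk1-/-Elk4-/- cells, Nfkb1[SS/AA] cells, RSKi47-treated cells, and cells given PD0325901 with LPS were compared at each time with the untreated WT libraries, among them those that the choice of genes used, while PD0325901 without LPS had its own controls. No label places the arms compared with untreated WT libraries in one experiment with them, so arm and experiment cannot be told apart. The difference between an arm and Map3k8[D270A] cells was not tested, and the values are given side by side. Gfra2 passed in no other arm, with differences from -0.21 to 0.11 in the arms compared with untreated WT cells. Its 95% intervals there reached from -0.675 to 0.689. Outside Map3k8[D270A] cells only 20 of 95 libraries reached the filter on low values for Gfra2, so its missing calls say little about small differences. Phyhip was under the filter on low values in every library outside Map3k8[D270A] cells, WT included, between 1.63 and 2.07, so that a missing call says nothing about it, although it counts among the 9 below.

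In Elk1-/-Elk4-/- cells 4, 3, 3, and 1 of the 9 genes passed at 0, 0.5, 1, and 2 h, while 51.8%, 44.4%, 53.4%, and 50.8% of all genes did. Over the times these were 5 genes. Adra1a was higher at all 4 times. Its values without LPS were 9.26, 9.38, 9.49, and 9.19 in Elk1-/-Elk4-/- cells, all above the WT maximum of 8.25, and it rose by 1.50 (SE 0.17, adjusted p = 1.07e-10, limma), or by 1.34, 1.48, and 1.29 at 0.5, 1, and 2 h. In Map3k8[D270A] cells it differed by 0.60, 0.53, 0.54, and 0.97. The neutrophil genes moved with it in these libraries. All 6 that were tested were higher in Elk1-/-Elk4-/- than in WT cells at each time, with median differences of 3.37, 3.41, 3.25, and 3.78. The B cell gene Cd79b was higher by 0.69, 0.78, 0.67, and 0.66, and the endothelial gene Kdr by 0.55, 0.53, and 0.72 at 0, 1, and 2 h. The 1 stromal gene tested was higher at 0.5, 1, and 2 h (0.56, 0.51, and 0.54). Of 2 dendritic cell genes 1 was higher at each time and 1 lower at 2 h (differences from -1.44 to 0.33), both glial and neural genes were lower at each time (from -0.51 to -0.13), and the 1 T cell gene was lower at 2 h (-0.51). Of 8 macrophage genes 2 were higher at each time and 2, 2, 3, and 2 lower (from -0.51 to 0.84). Their part in the Adra1a result and in the other results of this arm was not tested.

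Tnfrsf10b was higher in Elk1-/-Elk4-/- cells without LPS, at 7.10 ± 0.10 (SD, n = 4) against 6.52 ± 0.19 (n = 6), by 0.59 (limma, adjusted p = 2.34e-05), and at 0.5 h by 0.31 (limma, adjusted p = 0.025). Ankrd29 was higher by 0.38, 0.45, and 0.33 at 0, 0.5, and 1 h (limma, adjusted p = 0.00645, 0.00199, and 0.0188), against 1.50, 1.41, and 1.36 in Map3k8[D270A] cells. Abhd3 was higher without LPS by 0.20 (limma, adjusted p = 0.0329) and Cables1 lower at 1 h by -0.23 (limma, adjusted p = 0.0371). These smaller calls were fragile. With a block for replicate number Abhd3 no longer passed, nor without WT replicate 4 or 8 or Elk1-/-Elk4-/- replicate 3 or 4. Cables1 no longer passed without WT replicate 5, 6, or 8 or Elk1-/-Elk4-/- replicate 1 or 4. Ankrd29 lost its call without LPS when Elk1-/-Elk4-/- replicate 4 was left out, and at 1 h without WT replicate 4 or Elk1-/-Elk4-/- replicate 1, and Tnfrsf10b at 0.5 h without WT replicate 4 or 5 or Elk1-/-Elk4-/- replicate 1 or 4. With only the groups compared in the fit, Tnfrsf10b (0.22) and Tmem241 (0.11) passed at 1 h as well (limma, adjusted p = 0.0294 and 0.0464). The count of 5 was 3 without WT replicate 8 or Elk1-/-Elk4-/- replicate 4.

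In Nfkb1[SS/AA] cells 3 genes passed, each at all 3 times, with 32%, 32.3%, and 42.5% of all genes at 0, 0.5, and 1 h. Tnfrsf10b was lower, in the direction opposite to Map3k8[D270A] cells, by -0.34, -0.37, and -0.77 (limma, adjusted p = 0.0021, 0.00072, and 9.45e-12). At 1 h it averaged 6.64 ± 0.22 (n = 6) in Nfkb1[SS/AA] and 7.41 ± 0.11 (n = 6) in WT cells, without overlap. Tmem241, lower in Map3k8[D270A] cells, was higher here by 0.11, 0.29, and 0.21 (limma, adjusted p = 0.0407, 3.09e-08, and 4.02e-05). Adra1a was higher by 0.60, 0.52, and 0.49 (limma, adjusted p = 1.86e-05, 0.000223, and 0.000306). Of the 6 neutrophil genes 0, 0, and 3 were higher (limma; 1, 3, and 3 at an unadjusted p below 0.05), with medians of 0.29, 0.30, and 0.43. Of 2 dendritic cell genes 1 was higher at each time and 1 lower at 1 h (differences from -0.32 to 0.67), and of 2 glial and neural genes 2, 1, and 1 were lower (from -0.62 to -0.02). Of 8 macrophage genes 2 were higher and 2 lower at each time (from -0.38 to 0.45). Their part in the results of this arm was not tested. The Tmem241 call without LPS was lost with libraries centred on their median. It was also lost without any of 7 replicates (WT replicates 4, 6, 8, and 9 and Nfkb1[SS/AA] replicates 3, 5, and 6).

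PD0325901 acts below TPL-2, on MKK1/2. Without LPS, none of the 9 genes passed with PD0325901 against DMSO at 10 min, or at 40 and 70 min against 10 min (limma). The differences ran from -0.17 to 0.25, and 1 of 27 had an unadjusted p below 0.05 (Abhd3 at 40 min, 0.25). Of all genes 0%, 3.58%, and 6.09% passed at 10, 40, and 70 min, and 2.05%, 14.6%, and 17.1% at an unadjusted p below 0.05. The 95% intervals of these differences reached from -0.61 to 0.68. Exposures longer than 70 min without LPS were not part of the series, so a longer loss of MKK1/2 activity was not measured. DMSO-treated cells differed from untreated WT cells by -0.13 to 0.24 in the 9 genes, none of which passed (lowest adjusted p = 0.124, limma; 1 at an unadjusted p below 0.05, Ankrd29), while 23.6% of all genes did (35.3% unadjusted).

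When LPS followed PD0325901, 3 of the 9 genes were lower than in WT cells at 0.5 h and 3 at 1 h (4 over both times), and none was higher (limma). Of all genes 29.4% and 35.7% passed at 0.5 and 1 h, and 15% and 19.3% of all genes passed as lower. Tnfrsf10b was lower by -0.28 and -0.43 (limma, adjusted p = 0.0136 and 6.74e-05). Cables1 was lower by -0.23 at both times, Abhd3 by -0.24 at 0.5 h, and 4930480K23Rik by -0.22 at 1 h. Every one of these was opposite in sign to Map3k8[D270A] cells. The neutrophil genes were higher in these libraries, 6 and 5 of 6 at 0.5 and 1 h, with medians of 1.41 and 1.35, as were Cd79b (0.55 and 0.40) and Kdr (0.75 and 0.66), while Adra1a differed by -0.21 and -0.24. Of 2 dendritic cell genes 1 was higher at each time (differences from -0.18 to 0.38), and 1 and 2 of 2 glial and neural genes were lower (from -0.58 to 0). Of 8 macrophage genes 1 was higher at each time and 1 and 2 lower (from -0.56 to 0.50). Their part in the results of this arm was not tested. With the replicate block Adra1a passed as well at 1 h (-0.24, limma, adjusted p = 0.047; 0.105 without it). Of these only Tnfrsf10b at 1 h passed without each replicate in turn. At 0.5 h it was lost without WT replicate 8. The count was 1 without WT replicate 8, and 2 without WT replicate 5, 6, or 7 or PD0325901 with LPS replicate 3 or 4. Abhd3 was lost without WT replicate 4, 6, or 8 or PD0325901 with LPS replicate 4. Cables1 was kept at 0.5 h only without WT replicate 9 or PD0325901 with LPS replicate 1, and at 1 h only without WT replicate 9 or PD0325901 with LPS replicate 2 or 6. The call of 4930480K23Rik held without WT replicate 4 or 6 or PD0325901 with LPS replicate 1, 4, or 5. It was lost without any other replicate.

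With RSKi47, 3, 4, 5, and 1 of the 9 genes passed at 0, 0.5, 1, and 2 h (6 over the times), while 53%, 48.2%, 52.8%, and 52.1% of all genes did. Adra1a was higher by 1.03, 1.00, 0.99, and 0.83 (limma, highest adjusted p = 6.21e-07), and its 4 values without LPS, 8.94, 8.80, 8.77, and 8.92, exceeded every WT value at that time. Markers of other cells moved with RSKi47 as well. Of 6 neutrophil genes 4, 4, 5, and 5 were higher (medians 0.77, 0.56, 0.92, and 1.31), as were both stromal genes tested, Col1a1 and Col1a2 (medians 2.68, 1.33, 1.78, and 1.73), and the 1 endothelial gene tested, Kdr (0.84, 1.14, 0.93, and 0.83). Cd79b was lower by -0.81, -0.57, -0.65, and -0.70. Of 2 glial and neural genes 1, 1, 1, and 0 were higher and 1, 1, 1, and 2 lower (differences from -0.71 to 0.25), and of 2 dendritic cell genes 1, 1, 0, and 0 were higher and 0, 0, 1, and 1 lower (from -0.53 to 0.39). Of 8 macrophage genes 2, 3, 2, and 2 were higher and 2 lower at each time (from -0.75 to 0.58). The summed level of 5 stromal genes ran from 5.06 to 9.42 with RSKi47 and from 3.97 to 4.93 in WT cells, with Dcn and Pdgfra below 0 throughout. Their part in the results of this arm was not tested. Cables1 was lower by -0.49, -0.54, and -0.50 at 0, 0.5, and 1 h (limma, adjusted p = 2.75e-05, 2.73e-05, and 1.95e-05) without overlap, again opposite to Map3k8[D270A] cells. Tnfrsf10b was lower by -0.34 and -0.41 at 0.5 and 1 h, and Ankrd29 by -0.27 at 0.5 h. Tmem241 was lower by -0.13 and -0.18 at 0 and 1 h, the same sign as in Map3k8[D270A] cells, and Abhd3 was higher by 0.38 at 1 h. The Ankrd29 call was lost without WT replicate 6, 7, 8, or 9 or RSKi47 replicate 1 or 2, and the Tmem241 call at 0 h without WT replicate 7 or RSKi47 replicate 2 or 3.

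At a log2 difference of at least 1 as well, Adra1a alone passed, in Elk1-/-Elk4-/- cells at all 4 times and in RSKi47-treated cells without LPS. Of all genes 1.24%, 1.17%, 1.53%, and 2.09% met both conditions in Elk1-/-Elk4-/- cells, and 1.34%, 1.29%, 1.55%, and 2% with RSKi47. The share was 0.51%, 0.551%, and 1.17% in Nfkb1[SS/AA] cells, 0.409% and 0.735% with PD0325901 and LPS, and 0.623%, 4.14%, and 11% for LPS in WT cells.

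**Figure D3:**
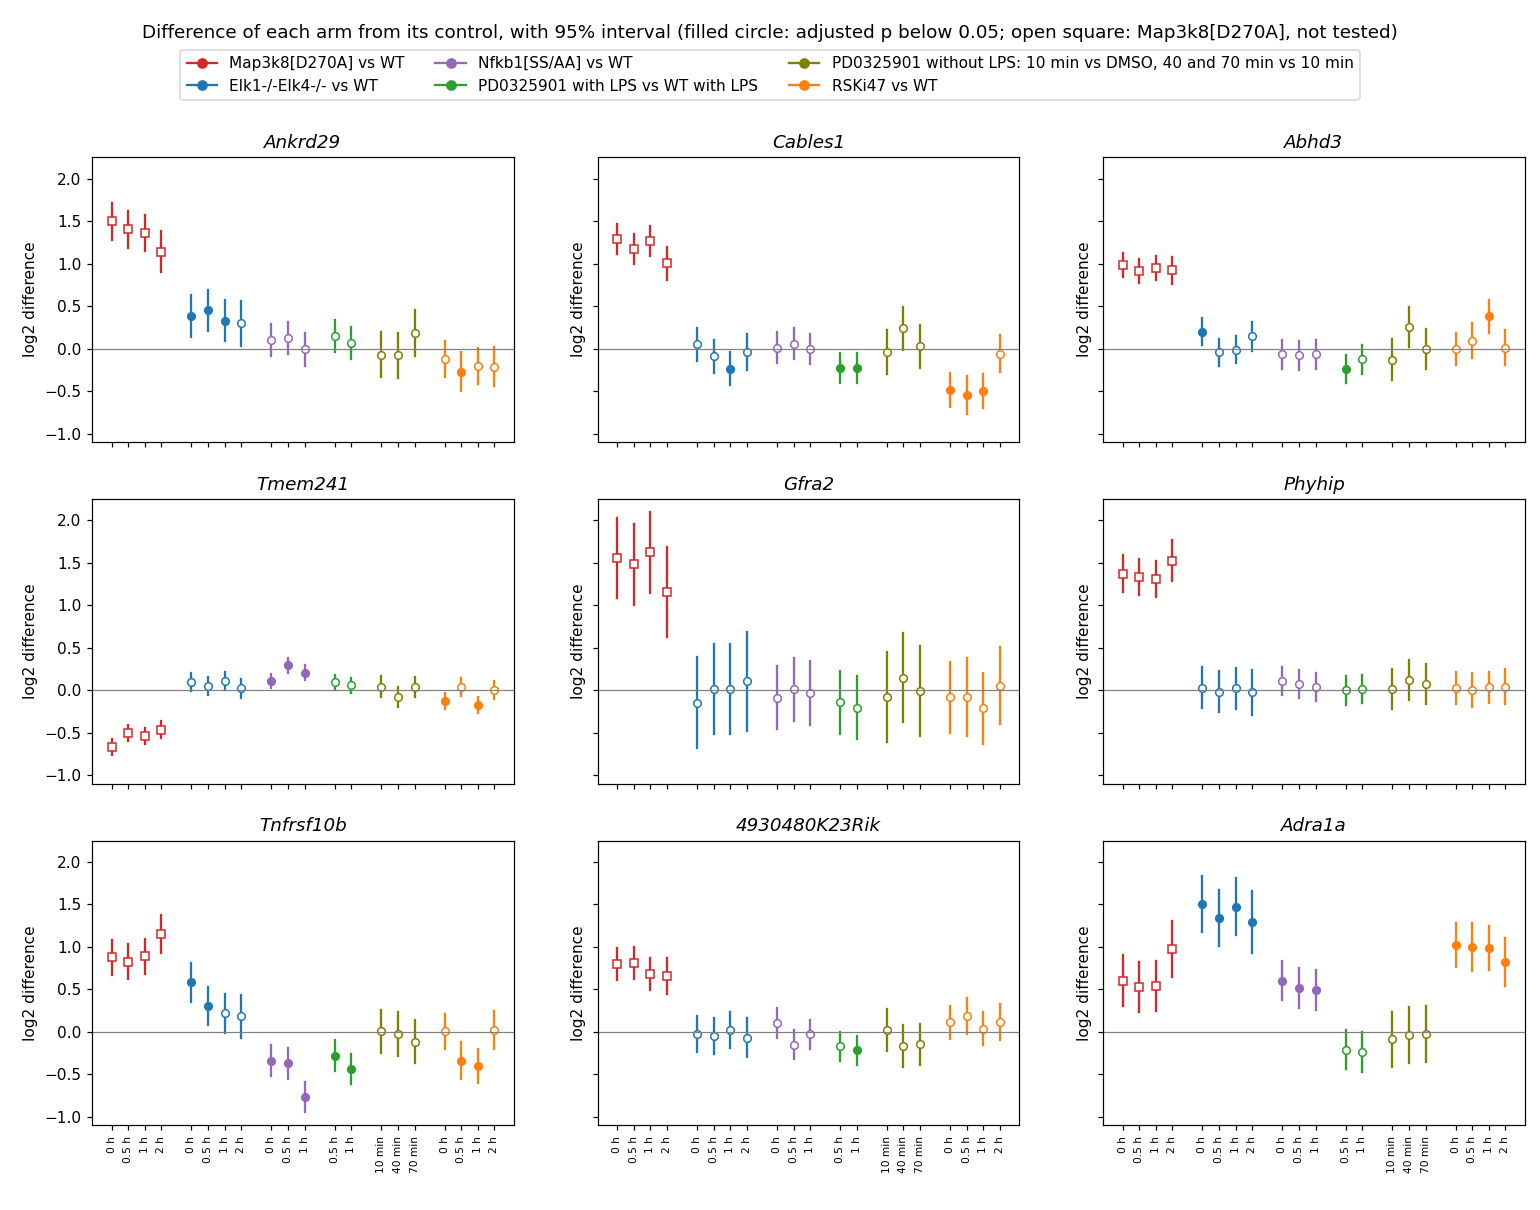
Log2 difference of each arm from its control (y axis) with its 95% interval, for the 9 genes; times of LPS or, for PD0325901 without LPS, of inhibitor run along the x axis within each arm. Open red squares are the Map3k8[D270A] differences that chose the genes, and filled circles passed an adjusted p of 0.05; Tnfrsf10b is negative in Nfkb1[SS/AA] cells (-0.77 at 1 h), and Adra1a reaches 1.50 in Elk1-/-Elk4-/- cells.

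Adra1a thus stood apart from the other 8 genes, since it passed at every time in 3 other arms with the sign it had in Map3k8[D270A] cells. By group means without LPS it was highest in Elk1-/-Elk4-/- cells (9.33), then in RSKi47-treated cells (8.86), then in Map3k8[D270A] and Nfkb1[SS/AA] cells, both at 8.43, and lowest in untreated WT (7.83), DMSO-treated (7.81), and PD0325901-treated cells (7.72 at 10 min). Untreated WT and DMSO-treated cells did not differ beyond their spread (SD 0.22 and 0.04), and neither did Map3k8[D270A] and Nfkb1[SS/AA] cells (SD 0.28 and 0.14). The PD0325901 values at 10 min (7.69 to 7.75) lay just below those with DMSO (7.77 to 7.84), and this did not pass. Across the means of all 25 groups, the genes most like Adra1a were Cyp2j6, Pls3, and Edil3 (r = 0.92, 0.89, and 0.87), none of them on chromosome 14. For Tnfrsf10b they were Usp14 and Mpp7 of chromosome 18 and Lipo1 (r = 0.86, 0.84, and 0.84). These correlations describe 25 means, which include those that chose the genes. For Adra1a the 4 Elk1-/-Elk4-/- means were the highest.

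LPS moved 1, 2, and 3 of the 9 genes in WT cells at 0.5, 1, and 2 h (3 over the times), beside 11.6%, 46.8%, and 71.5% of all genes. The unstimulated WT libraries entered this comparison and the choice of genes alike. Tnfrsf10b rose by 0.33, 0.89, and 0.60 (limma, adjusted p = 0.0244, 6.38e-11, and 5.77e-06), from 6.52 ± 0.19 (SD, n = 6) to 7.41 ± 0.11 (n = 6) at 1 h. In Map3k8[D270A] cells the same differences were 0.28, 0.90, and 0.87, given without a test since these libraries chose the genes. The rise at 0.5 h was lost without WT replicate 5, 6, or 8.

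Cables1 fell by 0.67 in WT cells at 2 h (limma, adjusted p = 1.97e-08), and by 0.76 in Elk1-/-Elk4-/- cells (limma, adjusted p = 1.01e-08, where 67.2% of all genes passed), and was 0.95 lower in Map3k8[D270A] cells. Tmem241 rose by 0.12 at 1 h (limma, adjusted p = 0.0319) and fell by 0.29 at 2 h (limma, adjusted p = 2.84e-06) in WT cells. Its rise was lost with libraries centred on their median and without WT replicate 4, 6, or 8. In Map3k8[D270A] cells Tmem241 was 0.25 higher at 1 h and 0.08 lower at 2 h than without LPS. Gfra2, Ankrd29, Abhd3, Phyhip, 4930480K23Rik, and Adra1a did not pass in WT cells, and at 2 h Gfra2, Ankrd29, Abhd3, 4930480K23Rik, and Adra1a differed by -0.16, -0.03, 0.05, -0.13, and 0.19. Gfra2 passed at 2 h when only the groups compared were fitted (limma, adjusted p = 0.0391). In Map3k8[D270A] cells, again without a test, Gfra2, Ankrd29, Abhd3, 4930480K23Rik, and Adra1a differed at 2 h from their level without LPS by -0.56, -0.39, -0.01, -0.26, and 0.56.

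The response to LPS itself was compared between the arms without Map3k8[D270A] and WT cells, and 2 of 90 differences passed. Of all genes 6.07% passed in the comparison that held the first of these and 21% in that of the second. In the others the share was 0.0589%, 1.35%, and 16.9% at 0.5, 1, and 2 h for Elk1-/-Elk4-/- cells, 0.309% at 0.5 h for Nfkb1[SS/AA] cells, 0.0251% and 5.54% at 0.5 and 1 h for RSKi47, and 1.49% and 3.58% at 0.5 and 1 h for PD0325901. Tnfrsf10b rose less in Nfkb1[SS/AA] than in WT cells at 1 h, by 0.46 against 0.89, a difference of -0.43 (SE 0.13; limma, adjusted p = 0.0236). Cables1 fell less with RSKi47 than in WT cells at 2 h, by 0.24 against 0.67, a difference of 0.43 (SE 0.15; limma, adjusted p = 0.0295). For Cables1 the RSKi47-treated cells started lower, at 4.84 against 5.33, and the levels were 4.60 and 4.66 at 2 h.

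**Figure D4:**
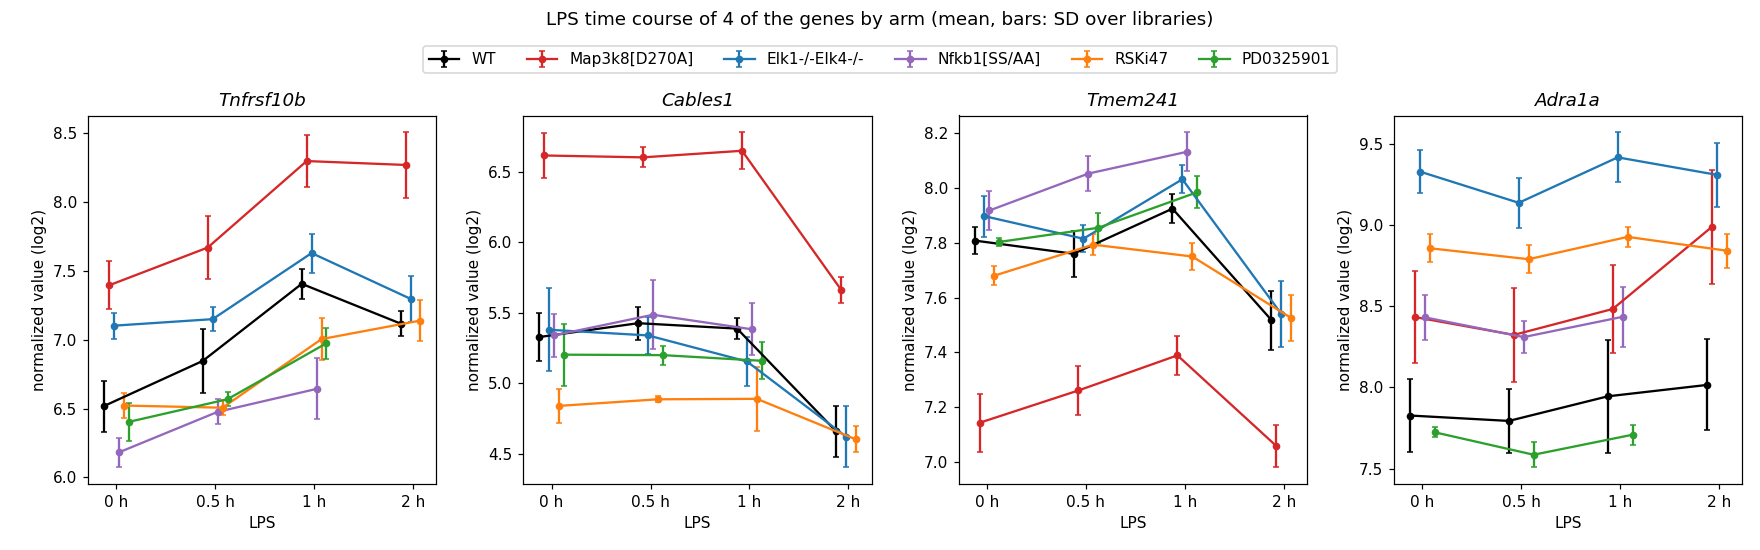
Mean log2 normalized value (y axis) of Tnfrsf10b, Cables1, Tmem241, and Adra1a at 0, 0.5, 1, and 2 h of LPS (x axis) in each arm, with bars for the SD over libraries; the PD0325901 point at 0 h is 10 min of inhibitor alone. Tnfrsf10b reaches 8.30 in Map3k8[D270A] cells and 6.64 in Nfkb1[SS/AA] cells at 1 h, and Cables1 is lower at 2 h than at 1 h in each arm measured then.

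Within the Map3k8[D270A] arm the chromosome 14 genes differed between replicates, and did so in the same way at all times. Replicates 2 and 5 held the top 2 values of Gfra2, Phyhip, and Tnfrsf10b at all 4 times. Gfra2 averaged 5.13 and 5.37 over the 4 times in these replicates, and 3.67 in replicate 4, which was lowest at each time (3.80, 3.50, 4.18, and 3.19). Replicate 4 also held the lowest 4930480K23Rik value at each time, and replicate 2 was among its top 2 at 4 times and replicate 5 at 3.

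Adra1a followed another order. Its replicate 5 was highest at all 4 times, between 8.84 and 9.64, and replicate 2 was lowest at all 4. Differences between replicates made up 94.2% of the variance of Gfra2 around its time means, 93.4% of that of Adra1a, 87.3% of Tnfrsf10b, 76.2% of Phyhip, and 75.0% of 4930480K23Rik. For the chromosome 18 genes the share was 16.9% to 50.6%, and the median over all genes was 32.6% (90th percentile 78.9%). In WT cells, where the median over all genes was 52.4%, it was 9.6% for Gfra2, 51.7% for Tnfrsf10b, and 63.7% for Adra1a. In Elk1-/-Elk4-/- cells, where that median was 11.9%, it was 50.2%, 43.8%, and 84.2% for these genes and 77.6% for Cables1, so large shares were not particular to Map3k8[D270A] cells.

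Across the 24 Map3k8[D270A] libraries, with the mean of each time subtracted, Phyhip went with Tnfrsf10b (r = 0.84), Tnfrsf10b with 4930480K23Rik (r = 0.76), and Gfra2 with 4930480K23Rik (r = 0.83). Adra1a was less like these 4 (r = 0.25 to 0.33). The 24 libraries are 6 replicates at 4 times, so that they share their replicates. Among the 3 genes most like each chromosome 14 gene, 8 of 15 places went to genes of chromosome 14, which holds 3.27% of the genes tested. They were 4930480K23Rik, Gfra2, Phyhip, and Tnfrsf10b themselves and Ccdc122 (in 2 places), R3hcc1, and Nudt18. For the chromosome 18 genes 0 of 12 were on chromosome 18, and the closest were Acsbg1 for Ankrd29 (r = 0.81), Slc37a1 for Cables1 (r = 0.82), Prune2 for Abhd3 (r = 0.66), and Mis18a for Tmem241 (r = 0.90). Whether genotype or culture differs between the replicates was not tested.

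**Figure D5:**
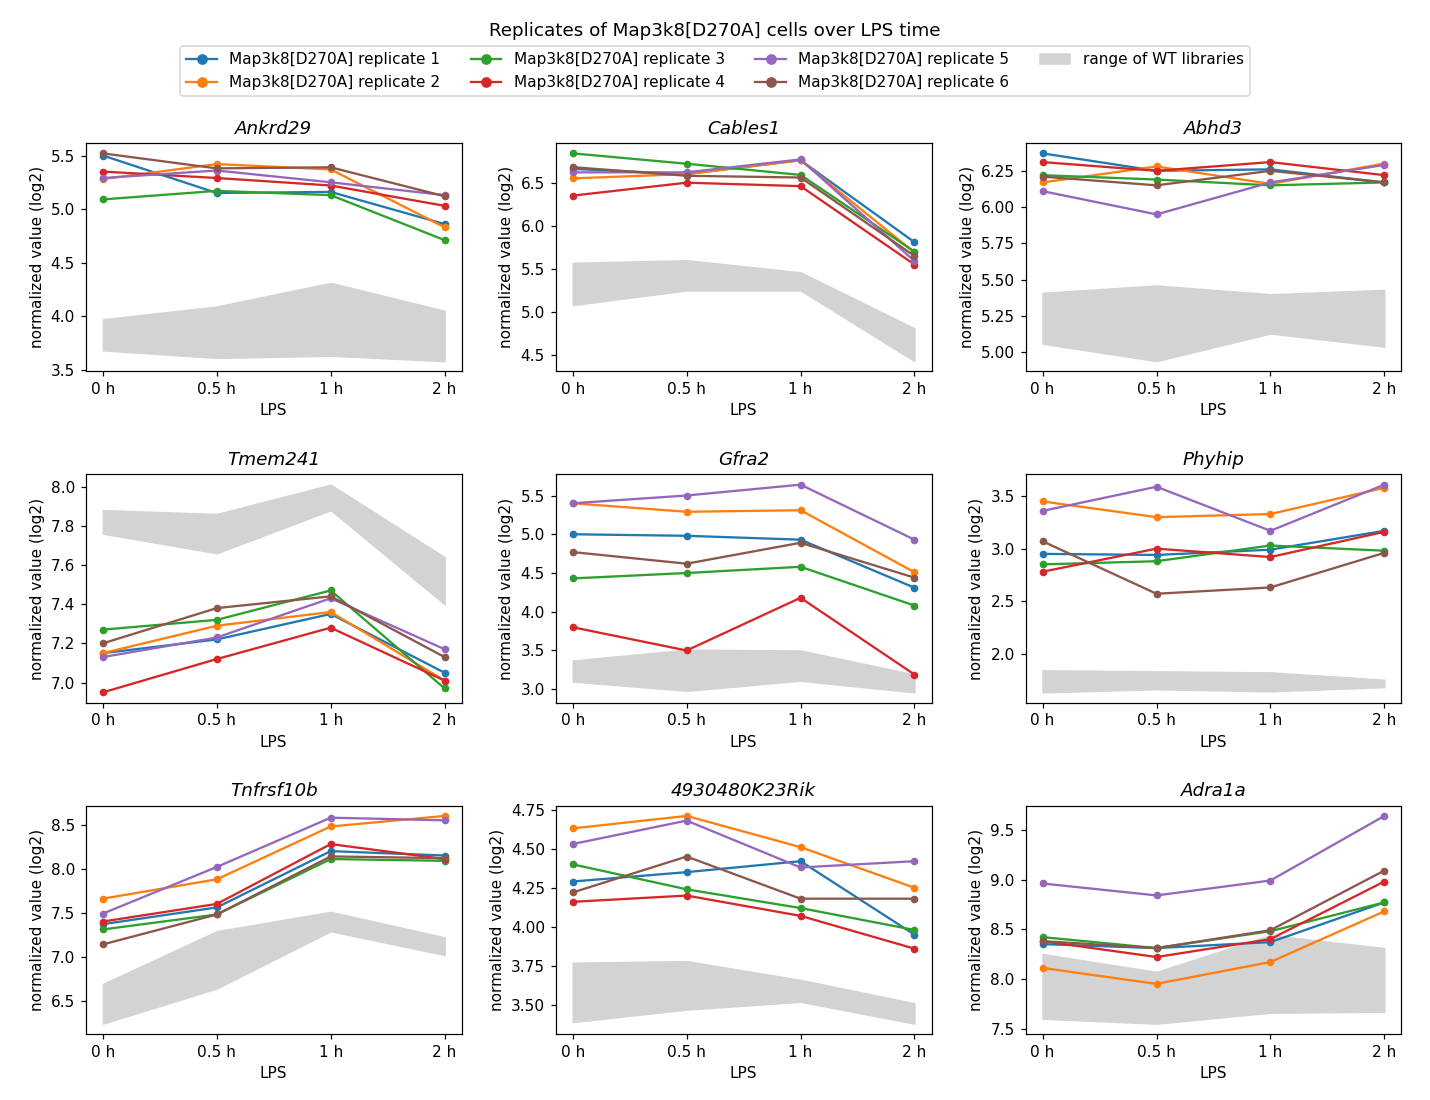
Log2 normalized value (y axis) of each of the 6 Map3k8[D270A] replicates at 0, 0.5, 1, and 2 h of LPS (x axis), with the range of the WT libraries in gray. Replicates 2 and 5 are the upper lines of Gfra2, Phyhip, and Tnfrsf10b, replicate 4 of Gfra2 enters the WT range at 0.5 and 2 h, and replicate 5 of Adra1a lies above the rest.

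Of 5 lists of genes related to the 9 by function or family, no member passed in Map3k8[D270A] cells without LPS. These were 13 tested genes of the TRAIL pathway (differences from -0.11 to 0.11), 17 other α/β-hydrolase domain genes (-0.23 to 0.08), 6 Cables1 relatives and kinases (-0.13 to 0.03), 2 relatives and partners of Phyhip, and the 1 tested gene of the GDNF receptor family, Gfra4 (-0.03), while 1.44% of all genes passed (limma). At an unadjusted p below 0.05 the counts were 2, 1, 1, 0, and 0, in the same order, beside 11.9% of all genes. After LPS some passed. The death-domain adaptor Fadd was higher by 0.35 at 1 and at 2 h (limma, adjusted p = 9.33e-09 and 3.56e-08), and Tnfsf10, which encodes TRAIL, by 0.65 at 2 h (limma, adjusted p = 0.0095). In all, 2 of the 13 TRAIL pathway genes were higher at 1 h, and 3 higher and 2 lower at 2 h.

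The kinase gene Wee1 was higher by 0.38 and 0.62 at 1 and 2 h (limma, adjusted p = 0.00024 and 5.71e-08), whereas Cables2 was lower by -0.26 at 2 h (limma, adjusted p = 2.14e-05). Of the hydrolase genes, Abhd17c was lower by -0.25 and -0.47 at 1 and 2 h and Abhd17b by -0.39 at 2 h, and Abhd13 was 0.12 higher at 1 h. At these times 9.79% and 27.7% of all genes passed.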

How the data were processed

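The authors prepared stranded, single-end libraries, aligned them with STAR 2.5.1b to mm10 (RefSeq) and estimated expression with RSEM 1.2.29 per the submitters' processing notes, which also name DESeq2 1.10.1. The paper names other versions of STAR and RSEM. The deposited values used here are log2 normalized values for 18098 genes (-2.40 to 19.81). No source used here states their transformation, counts could not be recovered, and the files give no depth per library, so precision rests on the spread between replicates. A value above 25 was set missing (1 value).

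Differences were tested with limma 3.58.1 (R 4.3.3) and adjusted over all genes tested by Benjamini-Hochberg. One fit held the 62 WT, Map3k8[D270A], and Elk1-/-Elk4-/- libraries (11884 genes that reached 10 on the linear scale in 4 libraries), and a second held all libraries (11971 genes, 3 libraries at that value). It served the Nfkb1[SS/AA] and inhibitor comparisons. A gene passed at an adjusted p below 0.05. The scripts were tested on simulated data. Groups came from the labels. One list of related genes is not reported here. The 9 genes and the lists were chosen with earlier results of these data known. Named genes were the 9, the altered genes, the 3 most like each, neighbours that passed at all 4 times, and others where a small count needed a name. Positions are those of GRCm38.p6.

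Libraries with the same replicate number deviated together across times: in WT cells all 30 pairs correlated above 0.1 (median r = 0.48, different numbers -0.19), in Nfkb1[SS/AA] cells 18 of 18, in Map3k8[D270A] cells 34 of 36, in Elk1-/-Elk4-/- cells 20 of 24, in RSKi47-treated cells 20 of 21, and in PD0325901-treated cells 14 of 33. The numbers were thus taken to link libraries within an arm, least clearly with PD0325901, and not across arms. A replicate block (correlation 0.361 and 0.318) was fitted as an alternative, beside other filters, a trend, median centring, fewer groups, a 2-fold threshold, and leaving out each replicate. In the tests, a replicate number left out was taken from all the times of its arm at once.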

Additional observations from a re-analysis of the deposited data

Results flagged for a closer look

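Of 180 combinations of gene and group (4 to 6 libraries), 7 (3.9%) had a library far from the rest by Dixon's criterion, which chance alone gives in about 5%. Adra1a gave 3 of them, at 8.25 in WT replicate 4 without LPS, 8.96 in Map3k8[D270A] replicate 5 without LPS, and 9.37 in Elk1-/-Elk4-/- replicate 3 at 0.5 h. Phyhip gave 2 in Nfkb1[SS/AA] cells, at 2.07 in replicate 1 without LPS and 1.72 in replicate 4 at 1 h, both under the filter on low values. Tnfrsf10b was high in WT replicate 8 at 0.5 h, at 7.29, and Tmem241 was low in Elk1-/-Elk4-/- replicate 4 at 2 h, at 7.36.

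The response to LPS differed between arms by a test of the difference itself for Tnfrsf10b, which rose less in Nfkb1[SS/AA] than in WT cells at 1 h (-0.43), and for Cables1, which fell less with RSKi47 than in WT cells at 2 h (0.43).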

How the results depend on the processing

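Among 2591 alternative values none changed sign where it or the main result passed. Sign changes where neither passed were not counted. In all, 2496 values kept their side of the threshold, 85 lost a call, and 10 gained one. Of 45 calls 29 held in every setting that gave them a value and without each replicate in turn. The cause of the losses was not tested. At a log2 difference of at least 1 as well, the genes that passed numbered 1 in Elk1-/-Elk4-/- cells, 1 with RSKi47, and 0 in Nfkb1[SS/AA] cells, with PD0325901 and LPS, and for LPS in WT cells. Without a filter on low values, 2 passed with PD0325901 and LPS, where a filter at a linear value of 20 left Phyhip untested. The replicate block ended the call of Abhd3 in Elk1-/-Elk4-/- cells without LPS and made that of Adra1a with PD0325901 and LPS at 1 h, giving counts of 4 and 5, and changed no other call. Calls were gained by Ankrd29 in Elk1-/-Elk4-/- cells at 2 h without WT replicate 6 or 7 or Elk1-/-Elk4-/- replicate 1, by Ankrd29 with RSKi47 at 1 and 2 h and Tmem241 with PD0325901 and LPS at 0.5 h without WT replicate 4, and by 3 results when only the groups compared were fitted. With DMSO and PD0325901 libraries as the control, the median difference of the chromosome 18 genes in Map3k8[D270A] cells was 1.22. Leaving out each replicate gave counts of 3 to 5 (Elk1-/-Elk4-/-), 3 to 3 (Nfkb1[SS/AA]), and 1 to 4 (PD0325901 with LPS). They were 0 to 0 (PD0325901 without LPS), 5 to 6 (RSKi47), and 3 to 3 (LPS in WT). The median differences were 1.12 to 1.16 (chromosome 18) and 0.82 to 0.93 (chromosome 14).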
